A study of Mus musculus with 92 samples.

Results

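The Reg (regenerating) genes encode small secreted C-type lectins, and 5 of them were followed here: Reg1, Reg3a, Reg3b, Reg3g and Reg4. They were taken by gene symbol from the raw count tables of the study, 5 of 54532 listed genes, and all 5 were found and had enough reads for the test in every comparison described below. The study sequenced poly(A) RNA from 92 libraries of mouse intestinal epithelium in which Eif4g2, a translation initiation factor related to eIF4G, was deleted, or in which p300/CBP acetyltransferases were inhibited with the compound A-485.

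The mice carried a tamoxifen-inducible Cre recombinase (CreER), and every mouse received tamoxifen. Rosa26(CreER) mice, whose recombinase is expressed in most cell types, were sampled on day 9 after the first dose. Their groups were Eif4g2(flox/flox) crypts (4 animals), Eif4g2(flox/+) crypts (5), flox/flox villi (5) and flox/+ villi (5). Vil1(CreER) mice, whose recombinase is restricted to the gut epithelium, were sampled at 3 months, after 4 daily doses of 100 mg/kg. They gave 3 flox/flox and 4 flox/+ crypt samples, and 6 flox/flox and 4 flox/+ villus samples. Crypts and villi of 1 animal were sequenced separately, so the tissues share animals, and the control mice had also lost 1 copy of Eif4g2. Rosa26(CreER) animals and flox/+ Vil1(CreER) animals are numbered within their group, and values are listed in that order. Crypts of flox/flox Rosa26(CreER) animal 2 were not analysed here, so the 4 crypt values of that group are animals 1, 3, 4 and 5. Ages of the mice at dosing are not given in the sources used here.

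The cultures came from Rosa26(CreER) mice and grew in a medium with EGF, Noggin and R-spondin. A first set of small intestinal organoids held 3 flox/flox lines, each with the solvent DMSO and with 0.5 µM 4-hydroxytamoxifen (4-OHT) for 24 hours, collected on day 6. A second set held 4-OHT-treated organoids only, 4 lines each of flox/flox, flox/+ and +/+ (CreER without a floxed allele). Fetal intestinal spheroids, 6 flox/flox and 5 flox/+ lines, received DMSO or 4-OHT. For A-485, 4 organoid lines with intact Eif4g2 (1 +/+ line and 3 flox/flox lines that received no 4-OHT) were cultured for 4 days with DMSO or 3, 5 or 10 µM. Line S6070 was used both in the first organoid set and for A-485.

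Reg3g and Reg3b are the best known members in the intestine: enterocytes and Paneth cells secrete them, and they bind and kill bacteria at the mucosal surface. Their transcription is known to follow microbial signals through Toll-like receptors and the adaptor MyD88, and the cytokine IL-22 through STAT3. Reg1 was first described in regenerating pancreas, Reg3a is the mouse gene that bears the name of the human bactericidal lectin, and Reg4 is a secreted lectin that marks enteroendocrine cells of the small intestine.

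On the mouse genome GRCm38, Reg3b (chromosome 6, 78370657 to 78373466, plus strand), Reg3a (78380709 to 78383827, plus), Reg1 (78422711 to 78428667, plus) and Reg3g (78466269 to 78468872, minus) lie within 98.2 kb. The only other annotated genes in that stretch are Reg3d and Reg2, so the cluster holds 6 protein-coding genes, all of this family. Reg4 lies alone on chromosome 3 (98222156 to 98236748, plus). No run of 50 bases is shared between annotated transcripts of any pair of these 7 genes, so reads of that length are not identical between them. Reg2 and Reg3d had means of at most 0.334 and 1.7 CPM (a count scaled to the size of its library) in any group.

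The promoters are printed because the members of the cluster moved together in some comparisons below and apart in others. Any part of these sequences in that was not tested. Each line gives the 120 bases before the RefSeq start site on the gene's strand (GRCm38.p6, 5 of 5 members matched), with the TATA box core TATAAA in capitals.
Reg3b, chr6:78370765-78370884, plus: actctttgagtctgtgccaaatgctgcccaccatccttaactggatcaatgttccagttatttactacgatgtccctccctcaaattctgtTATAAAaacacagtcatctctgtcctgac
Reg3g, chr6:78468875-78468994, minus: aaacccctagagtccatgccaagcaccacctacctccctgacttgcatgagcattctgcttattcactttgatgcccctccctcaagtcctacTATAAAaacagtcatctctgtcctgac
Reg3a, chr6:78380589-78380708, plus: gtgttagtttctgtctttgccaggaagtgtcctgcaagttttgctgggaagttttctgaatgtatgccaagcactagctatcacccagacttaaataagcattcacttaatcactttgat
Reg1, chr6:78425863-78425982, plus: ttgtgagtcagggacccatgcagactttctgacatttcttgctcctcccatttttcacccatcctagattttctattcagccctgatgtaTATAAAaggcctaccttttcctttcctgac
Reg4, chr3:98222036-98222155, plus: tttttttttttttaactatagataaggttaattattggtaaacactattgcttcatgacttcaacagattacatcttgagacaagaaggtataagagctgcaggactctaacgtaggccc

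TATAAA begins 30 bases before the start site in Reg1, 29 in Reg3b and 27 in Reg3g, and these letters are not in the Reg3a and Reg4 lines. On the given strand, 4.19% of 32851 RefSeq promoters hold TATAAA in the same 120 bases. The last 20 bases of the Reg3b and Reg3g lines are identical, acagtcatctctgtcctgac, which is the longest run shared by any pair of members over 250 bases. The next longest, atgccaagcac, has 11 bases and is shared by Reg3a and Reg3g. Over 250 bases and on both strands, the STAT motif TTCNNNGAA occurs in Reg3b only, 129 bases before its start, against 7.02% of all promoters. The kappa B motif GGGNNTTCC occurs in Reg3g only, 122 bases before its start on the other strand, against 4.98% of promoters, and the E box CACGTG, present in 6.02%, in none of the 5. TTCNNNGAA and GGGNNTTCC do not overlap TATAAA in these promoters.

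Libraries held 8652040 to 37611126 counts (median 23466650), and any 2 replicates of a group differed by a chi-square of at least 6.26 per degree of freedom, above counting noise. Eif4g2 itself followed the labels. It measured 67.9 to 98.3 CPM in flox/flox and 337 to 357 CPM in flox/+ Rosa26(CreER) crypts, and 48.3 to 61.7 against 319 to 384 CPM in villi. In Vil1(CreER) mice, at 3 months, the difference was smaller: 231 to 240 against 437 to 488 CPM in crypts and 134 to 182 against 357 to 475 CPM in villi. Crypt and villus labels also matched their markers: in flox/+ Rosa26(CreER) mice 10 enterocyte markers summed to 2542 to 4141 CPM in crypts and 66725 to 88311 CPM in villi. Ddx3y, a Y-linked gene, was at 1 CPM or more in all 5 flox/+ Rosa26(CreER) animals but in 2 of 5 flox/flox villus and 1 of 4 flox/flox crypt samples, so sex was not balanced in that set. Mitochondrial transcripts took 13.7 to 25.2% of counts in flox/flox and 6.24 to 12.4% in flox/+ Rosa26(CreER) crypts, and 30.4 to 40.3% against 17.5 to 30.8% in Vil1(CreER) crypts. In villi the ranges were 2.39 to 6.76% in flox/flox and 2.74 to 24.5% in flox/+ Rosa26(CreER) animals, and 6.86 to 23.5% against 9.71 to 24.3% in Vil1(CreER) animals. The crypt shares thus moved with the crypt differences given below, and their part in these was not tested.

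**Figure D1:**
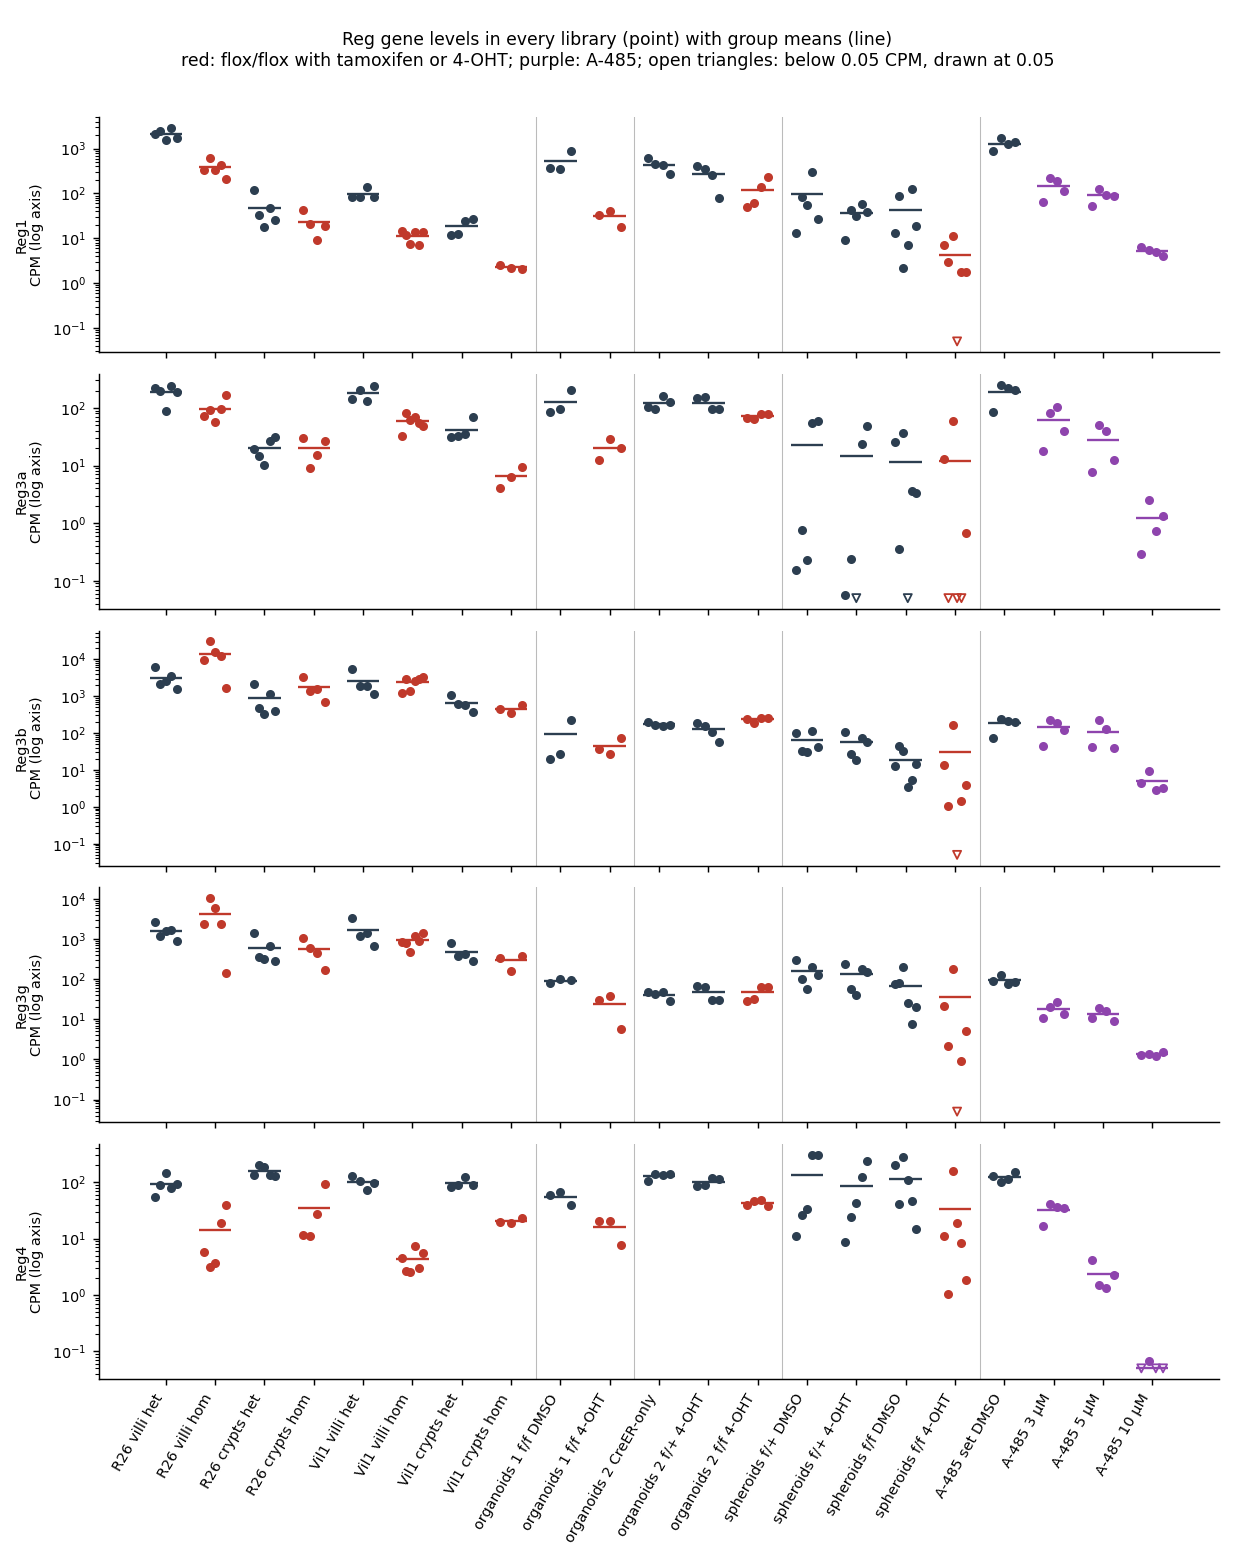
Level of each Reg gene in every library (log axis, CPM after TMM scaling within each of the 6 sets of libraries), with 1 column per group; points are libraries and bars are group means. Reg3b and Reg3g sit highest in villi, and all 5 genes sit lowest or near lowest with 10 µM A-485.

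The family covered a wide range. It took 3.15% of all counts in the villi of 1 flox/flox Rosa26(CreER) animal, where Reg3b was the most abundant gene of the library, and 0.000726% in 1 flox/flox spheroid line with 4-OHT. Levels are CPM scaled within each of 6 sets of libraries, so an order across sets is approximate. Per kilobase of transcript, the mean levels in flox/+ Rosa26(CreER) villi were 2803 CPM for Reg3b, 2378 for Reg1, 760 for Reg3g, 227 for Reg3a and 90.7 for Reg4. In flox/+ Vil1(CreER) villi Reg3b (2296 CPM per kilobase) and Reg3g (798) again led, but Reg1 was at 108. In organoids Reg1 led, at 1436 CPM per kilobase with DMSO in the A-485 set and 596 in the first organoid set, followed by Reg3a at 230 and 155.

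Ordered by mean CPM over all 21 groups, Reg1 ran from flox/+ Rosa26(CreER) villi (2149 ± 545, SD, n = 5) to flox/flox Vil1(CreER) crypts (2.26). Reg3b ran from flox/flox Rosa26(CreER) villi (13895 ± 10640, n = 5) to 10 µM A-485 (4.87), and Reg3g from the same villi (4329 ± 4074, n = 5) to 10 µM A-485 (1.34). Reg3a ran from DMSO organoids of the A-485 set (190 CPM) to 10 µM A-485 (1.21), and Reg4 from flox/+ Rosa26(CreER) crypts (157 CPM) to 10 µM A-485 (0.0168). For each gene 19 of the 20 neighbouring pairs in that order overlapped in their ranges. The 1 gap lay between tissue and cultures for Reg3b, between flox/flox Vil1(CreER) crypts at 461 CPM and flox/flox 4-OHT organoids of the second set at 236 CPM. For Reg3a, Reg3g and Reg4 it set 10 µM A-485 apart, and for Reg1 it lay between 11.4 CPM in flox/flox Vil1(CreER) villi and 5.21 CPM at 10 µM A-485.

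Along the crypt-villus axis of flox/+ mice, the 4 genes of the cluster were higher in villi and Reg4 was not. Reg1 measured 119, 32.9, 17.6, 47.5 and 25.6 CPM in crypts of the 5 flox/+ Rosa26(CreER) animals and 2170, 2425, 1564, 2898 and 1691 CPM in their villi. The lowest villus sample stood far above the highest crypt sample, a 44.6-fold difference (log2 -5.48 ± 0.53 SE, crypts against villi, edgeR adjusted p = 1.79e-06). In Vil1(CreER) mice Reg1 was 11.9, 12.5, 24.7 and 27.4 CPM in crypts and 84.6, 82.7, 140 and 81.3 CPM in villi, again without overlap and 4.91-fold apart (adjusted p = 0.000278). Reg1 in flox/+ villi was therefore far lower in the Vil1(CreER) than in the Rosa26(CreER) set, which were normalised separately. The sets differ in Cre driver, in time after tamoxifen and in sex (Ddx3y at 1 CPM or more in 5 of 5 flox/+ Rosa26(CreER) and 1 of 4 flox/+ Vil1(CreER) villus samples), and these cannot be told apart.

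Reg3a was 9.27-fold higher in villi than crypts in Rosa26(CreER) and 4.13-fold higher in Vil1(CreER) flox/+ mice (adjusted p = 3.61e-06 and 0.000317). Reg3b was 3.6- and 3.87-fold higher in villi (adjusted p = 0.00939 and 0.00832) and Reg3g 2.66- and 3.49-fold (0.0153 and 0.0127). Crypt and villus values of Reg3b and Reg3g overlapped between animals of the Rosa26(CreER) set: flox/+ animal 1 had 2154 CPM of Reg3b in crypts, above the villi of flox/+ animal 5 at 1610 CPM. Within animals both genes were lower in crypts in 5 of 5 Rosa26(CreER) and 4 of 4 Vil1(CreER) pairs. These tests did not use the pairs. With the animal as a block, Reg3b gave log2 -2.07 ± 0.22 (edgeR adjusted p = 5.07e-05) and -1.78 ± 0.18 (6.78e-05). Reg4 was slightly higher in crypts in Rosa26(CreER) mice (log2 0.75 ± 0.24, adjusted p = 0.0121) and did not differ by the test in Vil1(CreER) mice (log2 -0.04 ± 0.18, adjusted p = 0.84). It was higher in crypts in 5 of 5 Rosa26(CreER) animals and in 1 of 4 Vil1(CreER) animals. Of the 5 members, 5 passed the test in the first set, where 77.1% of all genes did, and 4 in the second, where 67.9% did, so a difference between crypts and villi was the rule for genes at large.

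In flox/flox against flox/+ mice, Reg4 fell in both tissues of both drivers. Reg1 and Reg3a fell in 3 of the 4 comparisons, and Reg3b and Reg3g did not follow them. In bulk tissue, fewer cells of a type and less RNA per cell cannot be told apart. In Rosa26(CreER) crypts on day 9, 1 member of 5 passed the test, against 20.2% of all genes. In the villi 4 of 5 did, 3 lower and 1 higher, against 33.2% of all genes. In Vil1(CreER) mice at 3 months the same 3 members, Reg1, Reg3a and Reg4, passed in crypts and in villi, all lower, against 29.3% and 42.5% of all genes. The median log2 difference of the 5 members was -0.02 in crypts and -1.0 in villi of the Rosa26(CreER) set, beside 0.04 and -0.01 over all genes. For Vil1(CreER) mice the medians were -2.20 and -1.64, beside 0.01 and 0.05.

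**Figure D2:**
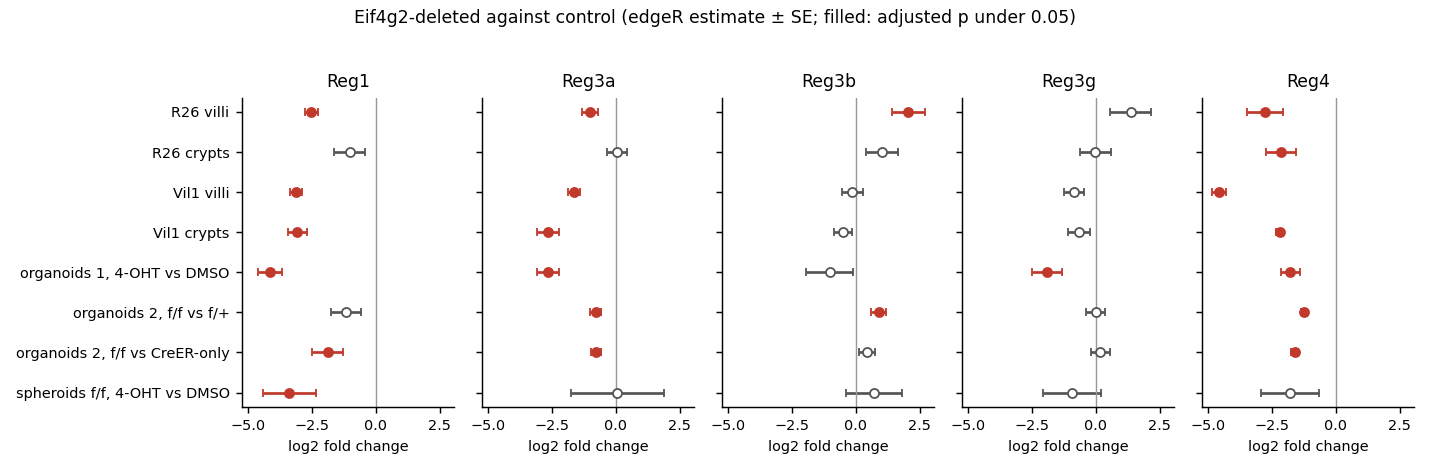
Log2 fold change of each Reg gene in each comparison (points, horizontal axis) with its standard error (bars), filled where the edgeR adjusted p was under 0.05. Reg1, Reg3a and Reg4 lie to the left of 0 in most comparisons of flox/flox samples, and Reg3b and Reg3g scatter around it.

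Reg4 had 135, 204, 186, 135 and 127 CPM in flox/+ and 11.5, 11.1, 27.6 and 91.8 CPM in flox/flox Rosa26(CreER) crypts. No flox/flox crypt sample reached the flox/+ range, and the highest, flox/flox animal 5, stood apart from the other 3. The difference was 4.4-fold (log2 -2.14 ± 0.60, adjusted p = 0.0341). Without flox/flox animal 5 it was larger (log2 -3.15, adjusted p = 0.000729), while leaving out any other single animal moved the adjusted p to between 0.0539 and 0.105. The genotypes are different animals that share only a replicate number. Same-numbered crypt samples correlated at 0.127 to 0.652, and 2 of 4 correlated best with their own number. With the replicate number as a block the Reg4 value was log2 -2.56 (adjusted p = 0.051), which is not a paired test. With the presence of Ddx3y as a covariate it was log2 -3.69 (adjusted p = 0.0516).

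In villi of the same set Reg4 was 55.6, 88.1, 144, 80 and 95 CPM in flox/+ and 5.88, 3.14, 3.65, 18.9 and 38.9 CPM in flox/flox animals. The groups did not overlap, and flox/flox animal 5 was again the highest of its group. Reg4 was 6.76-fold lower (log2 -2.76 ± 0.70, adjusted p = 0.0146), and the call held when any 1 animal was left out.

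In Vil1(CreER) mice Reg4 measured 81.2, 87.8, 122 and 90.2 CPM in flox/+ crypts and 20, 19.3 and 22.8 CPM in flox/flox crypts, 4.59-fold lower (log2 -2.20 ± 0.15, adjusted p = 8.42e-05). In villi it was 130, 107, 72.5 and 98.1 CPM in flox/+ animals, and 2.58 to 7.45 CPM with a median of 3.79 in the 6 flox/flox animals. That is 23.7-fold lower (log2 -4.57 ± 0.28, adjusted p = 2.77e-07). Neither tissue showed overlap, and the flox/flox animals lay close together. The drop was larger in villi than in crypts by the test of the difference itself, a log2 difference of -2.35 ± 0.38 (adjusted p = 0.00166), which held without any 1 of 17 libraries. Flox/flox crypts also kept more Eif4g2 (231 to 240 CPM) than flox/flox villi (134 to 182 CPM), and the part of this was not tested. Among the 5 members, 1 passed this test of the tissue difference, against 15.5% of all genes. In Rosa26(CreER) mice none of the 5 passed it with edgeR or DESeq2 (1, Reg1, had an unadjusted p under 0.05), against 11.5% of all genes (4683 of 16495 had an unadjusted p under 0.05). Leaving out the crypts of flox/+ animal 1 gave Reg1 a log2 difference of -2.05 (adjusted p = 0.0315) in place of -1.40 (0.175).

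Markers of enteroendocrine cells, the cells that Reg4 is known to mark, were lower in these samples, as were many Paneth and goblet markers given below. Of 12 enteroendocrine genes, 11 were lower in flox/flox than flox/+ Rosa26(CreER) crypts and none higher, with a median log2 difference of -2.0. Of all genes, 20.2% were called in that comparison, in either direction. In villi of that set 9 of 10 tested enteroendocrine genes were lower (33.2% of all genes called). In Vil1(CreER) crypts 11 of 12 were lower (29.3%), and in Vil1(CreER) villi 11 of 11 (42.5%). Their summed level was 81.4 to 267 CPM against 459 to 774 CPM in Rosa26(CreER) crypts, and 68.8 to 133 against 548 to 983 CPM in Vil1(CreER) villi. Flox/flox animal 5 also had the highest sum of the flox/flox Rosa26(CreER) group, 267 CPM in crypts and 420 CPM in villi. Their part in the Reg4 result was not tested.

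Reg1, first known from regenerating pancreatic tissue, fell in both drivers. In villi of flox/flox Rosa26(CreER) animals it measured 337, 603, 334, 442 and 211 CPM, against the 1564 to 2898 CPM of the flox/+ animals. Every flox/flox animal lay below every flox/+ animal, 5.77-fold lower (log2 -2.53 ± 0.26, adjusted p = 8.37e-05). In the crypts the values were 42.9, 21, 8.96 and 18.8 CPM, overlapping the flox/+ crypts, and the test was not passed (log2 -1.02 ± 0.61, adjusted p = 0.263). In Vil1(CreER) crypts Reg1 was 2.57, 2.17 and 2.05 CPM in flox/flox animals, 8.45-fold below the 11.9 to 27.4 CPM of flox/+ animals (log2 -3.08 ± 0.37, adjusted p = 0.00117). In Vil1(CreER) villi it was 7.04 to 14.3 CPM with a median of 12.9, against 81.3 to 140 CPM, 8.67-fold lower (log2 -3.12 ± 0.23, adjusted p = 8.48e-07). The Vil1(CreER) groups did not overlap in either tissue.

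Pancreatic acinar cells are the other source of Reg1 that a gut sample could hold. Their 10 markers summed to 6.45 to 41.9 CPM in flox/+ and 5.84 to 33.1 CPM in flox/flox Rosa26(CreER) crypts, and to 9.78 to 21.6 and 6.21 to 13.7 CPM in villi. All 10 had reads in both tissues of that set. The highest of these sums is close to the mean Reg1 of 48.5 CPM in flox/+ crypts, while Reg1 averaged 2149 CPM in flox/+ villi. In Vil1(CreER) crypts the markers summed to 2.54 to 5.94 CPM in flox/+ and 7.35 to 13.9 CPM in flox/flox animals, where they exceeded Reg1 and moved the other way. In Vil1(CreER) villi they summed to 9.5 to 15.3 and 4.68 to 8.37 CPM, lower in flox/flox animals like Reg1. Of the 10, Prss2, Cpa1, Cela2a, Cela3b, Pnlip, Amy2a5 and Try4 had no reads in Vil1(CreER) crypts of either genotype. In organoids with DMSO the list summed to 30.9 to 50.3 CPM in the A-485 set and 17.8 to 27.6 CPM in the first set. Prss2, Cpa1, Cela2a, Cela3b, Amy2a5 and Try4 had no reads in either. The sum is therefore not a measure of acinar cells alone. The part of acinar cells in the Reg1 result was not tested.

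Reg3a, the third secreted lectin that fell, was 145, 201, 131 and 240 CPM in flox/+ Vil1(CreER) villi. The 6 flox/flox animals had 32.9 to 82 CPM with a median of 58.3, below every flox/+ animal and 3.12-fold lower (log2 -1.64 ± 0.24, adjusted p = 0.00018). In Vil1(CreER) crypts it was 30.7, 33, 34.6 and 69.1 CPM against 4.14, 6.32 and 9.54 CPM, 6.26-fold lower (log2 -2.65 ± 0.43, adjusted p = 0.00504). In Rosa26(CreER) villi Reg3a was 225, 200, 87.1, 238 and 188 CPM in flox/+ and 72.7, 90.3, 56.9, 94.1 and 169 CPM in flox/flox animals. These groups overlapped, and the difference of log2 -1.0 ± 0.32 (adjusted p = 0.0333) passed the test in only 2 of 10 refits that left out 1 animal, with adjusted p up to 0.077. The call remained without flox/flox animal 5 or flox/+ animal 3 and was lost without any of the other 8 animals, where the log2 difference lay between -0.84 and -0.99. In Rosa26(CreER) crypts Reg3a was 29.7, 9.17, 15.4 and 26.9 CPM against 19.4, 14.7, 10.1, 26.2 and 31.1 CPM, with log2 0.05 ± 0.39 (adjusted p = 0.946).

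Reg3b, a bactericidal lectin of enterocytes, was the 1 member that rose in tissue. In Rosa26(CreER) villi it measured 6107, 2196, 2639, 3452 and 1610 CPM in flox/+ animals and 9387, 30471, 15915, 12070 and 1633 CPM in flox/flox animals. Flox/flox animals 1 to 4 were above all flox/+ animals, and animal 5 was at the bottom of the flox/+ range. The fit gave 4.17-fold more (log2 2.06 ± 0.64, adjusted p = 0.0307). The call depended on single animals: it was lost without flox/flox animal 2 (log2 1.57, adjusted p = 0.0749) or 3 (2.03, 0.0579). It was also lost without flox/+ animal 2 (1.96, 0.0712), 3 (2.04, 0.0656), 4 (2.08, 0.0606) or 5 (1.89, 0.0697). Without flox/flox animal 5 it was firmer (log2 2.36, adjusted p = 0.00267).

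Reg3g, the neighbouring bactericidal gene that shares the last 20 promoter bases with Reg3b, showed the same order of animals. It was 2396, 10518, 6141, 2448 and 140 CPM in flox/flox villi and 2601, 1204, 1597, 1731 and 905 CPM in flox/+ villi. The groups overlapped at both ends, and the test was not passed with all animals (log2 1.37 ± 0.80, adjusted p = 0.219). Without flox/flox animal 5 it was passed (log2 1.70, adjusted p = 0.0195). Flox/flox animal 5 had 61.7 CPM of Eif4g2 in villi, the highest of its group of 48.3 to 61.7 CPM and far below the flox/+ range.

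In Rosa26(CreER) crypts Reg3b was 3289, 1393, 1576 and 714 CPM in flox/flox and 2154, 474, 331, 1126 and 406 CPM in flox/+ animals, and Reg3g was 1044, 603, 455 and 174 against 1434, 352, 315, 662 and 292 CPM. Both pairs of groups overlapped, and neither gene passed the test (log2 1.03 ± 0.63, adjusted p = 0.272, and log2 -0.02 ± 0.61, adjusted p = 0.982). In Vil1(CreER) crypts Reg3b was 448, 355 and 581 CPM in flox/flox and 1045, 612, 569 and 384 CPM in flox/+ animals (log2 -0.50 ± 0.34, adjusted p = 0.333). In their villi it was 1253 to 3307 CPM with a median of 2689 against 5612, 1847, 1881 and 1151 CPM (log2 -0.14 ± 0.41, adjusted p = 0.8). Reg3b thus overlapped between genotypes in both Vil1(CreER) tissues. Reg3g gave log2 -0.66 ± 0.44 in Vil1(CreER) crypts (adjusted p = 0.316) and -0.85 ± 0.38 in villi (adjusted p = 0.0929). Without flox/+ animal 4, the lowest of its group at 672 CPM, the villus value was log2 -1.11 (adjusted p = 0.0231).

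A list of 16 genes held the receptors, kinases and targets of IL-22 and gp130 cytokines that act on STAT3. Counted in either direction, they passed the test about as often as genes at large in Rosa26(CreER) mice and less often in Vil1(CreER) mice. In Rosa26(CreER) crypts 3 of 16 were higher in flox/flox animals and none lower, against 20.2% of all genes called in either direction (median log2 0.43, beside 0.04 over all genes). In villi 5 of 16 were higher and none lower, against 33.2% (median 0.43, beside -0.01). Counted upward only, 1367 of 15846 genes at large were higher in these crypts and 2031 of 13579 in these villi. Il18, an epithelial cytokine, was higher in crypts (log2 2.30, adjusted p = 0.00122) and villi (1.03, 0.000207). Il6st, the shared gp130 receptor chain, was higher in villi (log2 0.99, adjusted p = 0.00487). Socs3, the feedback inhibitor of STAT3, was higher in villi (log2 1.49, adjusted p = 0.0288), a call that held in 3 of 10 refits without 1 animal. Among Vil1(CreER) samples, 1 of 15 tested genes was higher and 2 lower in crypts (median 0.06), and in villi 3 were higher and 1 lower (median -0.22), against 29.3% and 42.5% of all genes.

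Among 12 cytokines, 2 of 6 tested were higher in flox/flox Rosa26(CreER) crypts and 2 of 4 in their villi. Vil1(CreER) mice had 3 of 6 higher in crypts and 3 of 5 in villi, and none was lower in any of these. Of all genes, 20.2%, 33.2%, 29.3% and 42.5% were called in these comparisons, in that order and in either direction. Il33, an alarmin of barrier tissues, rose by log2 2.64 ± 0.43 and 3.24 ± 0.40 in Rosa26(CreER) crypts and villi and by 1.78 ± 0.26 in Vil1(CreER) villi (adjusted p = 0.00362, 0.000338 and 0.000217). Il22 had no reads in Rosa26(CreER) villi of either genotype. Of the 15 receptors and adaptors that sense microbes, none passed the test in Rosa26(CreER) crypts, and 2 of 14 tested were higher in villi and none lower. For Vil1(CreER) crypts 2 of 15 were higher and 2 lower, and in villi 4 of 14 were higher and 2 lower.

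Other secreted defence genes, a list of 21, went both ways. In Rosa26(CreER) villi 7 of 15 tested were higher and 2 lower (33.2% of all genes were called), with a median log2 difference of 1.32 beside -0.01 over all genes. They included Nos2, which makes nitric oxide (log2 4.67 ± 1.37, adjusted p = 0.0263), Duox2, an epithelial oxidase (4.36 ± 1.25, 0.0239), and the scavenger protein Dmbt1 (2.62 ± 0.79, 0.0285). These calls held in 6, 6 and 5 of 10 refits without 1 animal. In crypts 6 of 19 tested were lower and 2 higher (20.2% of all genes were called). The neutrophil and epithelial proteins S100a8 (log2 4.82 ± 0.96, adjusted p = 0.00902) and S100a9 (4.85 ± 0.99, 0.00979) rose, and the Paneth cell gene Ang4 fell (log2 -2.09 ± 0.27, adjusted p = 0.00136). The crypts of Vil1(CreER) mice had 6 of 13 tested lower and 1 higher (median log2 -0.65), and the list summed to 3256 to 4052 CPM in flox/flox and 5697 to 8771 CPM in flox/+ animals. In Vil1(CreER) villi 5 of 12 were higher and 5 lower, and the sums overlapped, with medians of 8088 and 10823 CPM. In the first organoid set 7 of 12 were lower and 1 higher with 4-OHT (2534 to 3534 against 7030 to 8338 CPM summed), and in the second 5 of 12 were lower and 1 higher than in flox/+ lines. Of all genes, 29.3% and 42.5% were called in Vil1(CreER) crypts and villi, and 35.4% and 46.8% in these organoid comparisons.

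Markers of other cells moved in the same samples, where 20.2% (crypts) and 33.2% (villi) of all genes were called in Rosa26(CreER) mice. In Vil1(CreER) mice the shares were 29.3% and 42.5%. Of 10 Paneth markers, 9 were lower in flox/flox Rosa26(CreER) crypts, where they summed to 2650 to 11209 CPM against 17268 to 23755 CPM, and 10 of 10 were lower in Vil1(CreER) crypts. Of 10 goblet markers, 10 were lower in Vil1(CreER) villi and 5 in those of Rosa26(CreER) mice, and 7 and 4 in the crypts. Enterocyte markers, the list of the cells that make most Reg3b and Reg3g in villi, summed to 57733 to 87347 CPM in flox/flox and 66725 to 88311 CPM in flox/+ Rosa26(CreER) villi, and 1 of 10 was lower. Of the same markers, 5 of 10 were lower in Vil1(CreER) crypts (944 to 2107 against 1840 to 4536 CPM), and in villi 3 were lower and 1 higher. Immune markers (12 genes, all with reads) summed to 97.8 to 1786 CPM in flox/flox and 161 to 502 CPM in flox/+ Rosa26(CreER) crypts, and the lowest sum was in flox/flox animal 5. In villi they summed to 201 to 357 against 212 to 667 CPM, with 6 of 12 lower. In Vil1(CreER) villi 8 of 12 were lower, and in crypts 2 were higher and 1 lower. The part of these cells in the Reg results was not tested.

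Organoids hold epithelium grown without immune cells or microbes. In the first organoid set 4 of 5 members, all but Reg3b, passed the test and were lower with 4-OHT, against 35.4% of all genes. This set held no flox/+ or +/+ lines, so loss of Eif4g2 and other effects of 4-OHT or CreER cannot be told apart. Reg1 was 378, 350 and 888 CPM with DMSO and 33.3, 40.8 and 18.3 CPM with 4-OHT in lines S6070, S6072 and S2080. All 3 lines fell and the groups lay far apart, 17.5-fold (log2 -4.13 ± 0.47, adjusted p = 0.00111). Reg3a went from 84.6, 94.5 and 204 CPM to 12.5, 28.8 and 19.9 CPM (log2 -2.65 ± 0.43, adjusted p = 0.00351), and Reg4 from 59.5, 67.5 and 39.2 CPM to 20.3, 20.5 and 7.66 CPM (log2 -1.78 ± 0.38, adjusted p = 0.0105). Neither gene overlapped between treatments, and both were lower in 3 of 3 lines. Without the filter on low counts the Reg4 difference had an adjusted p of 0.0825.

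Reg3g was 78.5, 101 and 98.2 CPM with DMSO and 30.9, 37.3 and 5.61 CPM with 4-OHT, lower in 3 of 3 lines (log2 -1.91 ± 0.58, adjusted p = 0.0379). This call was the least firm: it was lost without the DMSO library of S6070 (adjusted p = 0.0751), S6072 (0.0942) or S2080 (0.0824), or the 4-OHT library of S6070 (0.0746). Reg3b was 19.3, 27.5 and 232 CPM with DMSO and 36.3, 27.8 and 73 CPM with 4-OHT. The groups overlapped and line S2080 held most of the Reg3b, so the value rested on it: the log2 difference was -1.02 ± 0.92 with all libraries (adjusted p = 0.429) and 0.97 without the DMSO library of S2080 (adjusted p = 0.141).

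In the second set, all with 4-OHT, Reg4 again fell most firmly. It was 39.6, 45.7, 48.8 and 38.7 CPM in flox/flox, 86.4, 90, 118 and 115 CPM in flox/+ and 104, 143, 137 and 143 CPM in +/+ organoids. Every flox/flox line was below every other line, by 2.37-fold against flox/+ (log2 -1.25 ± 0.13, adjusted p = 9.64e-06) and 3.05-fold against +/+ (log2 -1.61 ± 0.13, adjusted p = 1.2e-06). Reg3a was 67.7, 63, 79.3 and 77.7 CPM in flox/flox, 149, 154, 95.6 and 96.8 CPM in flox/+ and 102, 97.5, 160 and 129 CPM in +/+ lines. It was lower in flox/flox lines without overlap, by log2 -0.78 ± 0.21 and -0.77 ± 0.21 (adjusted p = 0.00992 and 0.0114).

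Reg1 varied more between lines: 50.1, 61.7, 141 and 229 CPM in flox/flox, 405, 343, 252 and 78.9 CPM in flox/+ and 606, 453, 436 and 276 CPM in +/+ organoids. The flox/+ line S9349 fell within the flox/flox range, and the difference from flox/+ was not passed (log2 -1.16 ± 0.59, adjusted p = 0.138). Against +/+ lines there was no overlap (log2 -1.88 ± 0.60, adjusted p = 0.0287), but the call was lost in 5 of 8 refits without 1 line. These left out flox/flox lines S8872 (adjusted p = 0.0649), S8876 (0.072) or S9309 (0.0561), or +/+ replicates 1 (0.0674) or 2 (0.0551).

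Reg3b was higher in flox/flox than flox/+ organoids: 237, 187, 254 and 264 CPM, against 193, 154, 106 and 56.4 CPM in flox/+ and 203, 169, 156 and 163 CPM in +/+ lines. The lowest flox/flox line overlapped the highest flox/+ line. The difference from flox/+ was log2 0.89 ± 0.31 (adjusted p = 0.0395) and that from +/+ was 0.45 ± 0.31 (adjusted p = 0.271). With only the 2 groups compared in each fit, the difference from flox/+ was not called (log2 0.89, adjusted p = 0.0766) and that from +/+ was (log2 0.45, adjusted p = 0.00909). With the replicate number as a block the adjusted p values were 0.0981 and 0.0158. The flox/+ call was also lost without the filter on low counts (adjusted p = 0.0792). It was lost too without flox/flox lines S8872 (adjusted p = 0.0722), S9309 (0.0842) or S9310 (0.0848) or flox/+ line S9348 (0.0981). Reg3g was level, at 29, 31.3, 63 and 65 CPM in flox/flox, 67.9, 62.5, 30.4 and 30.7 CPM in flox/+ and 47.6, 42.6, 47.2 and 29.1 CPM in +/+ lines, with log2 -0.01 ± 0.37 and 0.18 ± 0.37.

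Of the 5 members, 3 passed the test against flox/+ (1 higher, 2 lower), where 46.8% of all genes did, and 3 against +/+, all lower, where 45.3% did. Between flox/+ and +/+ organoids none passed with edgeR or DESeq2 (1, Reg4, had an unadjusted p under 0.05), where 0.113% of all genes did (1481 of 14220 had an unadjusted p under 0.05). Reg4 had log2 -0.37 ± 0.13 (adjusted p = 0.339). Immune markers summed to 19.8 to 28.8 CPM in flox/flox and 35.6 to 47.3 CPM in flox/+ organoids, with Cd3g, Cd8a and Cd4 at 0 in both, and Il22 and Il17a were at 0. Of 16 STAT3 pathway genes, 7 of 13 tested were higher in flox/flox than flox/+ organoids and 1 was lower. In the first organoid set 3 of 13 were higher and 3 lower, where 35.4% of all genes were called. There Il6st was higher (log2 0.98 ± 0.12, adjusted p = 0.00144) and Socs3 lower (log2 -0.92 ± 0.12, adjusted p = 0.00188).

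Markers of secretory cells were also measured in both organoid sets. Of all genes, 35.4% were called in the first set and 46.8% in the second against flox/+, in either direction. Enteroendocrine markers were lower for 10 of 12 genes in the first set (53.9 to 191 CPM summed, against 453 to 631 CPM) and for 9 of 12 in the second against flox/+ (290 to 351 against 670 to 995 CPM). Paneth markers were lower for 8 of 10 and 10 of 10 genes. Goblet markers were lower for 8 of 10 genes in the first set (846 to 2627 against 5500 to 6356 CPM). In the second, 6 of 10 were lower and 1 higher against flox/+, and the sums overlapped (1785 to 2310 against 2018 to 2997 CPM). Enterocyte markers were lower for 8 of 10 genes in the first set (median log2 -1.29) and for 3 of 10 in the second (median -0.20). Pigr, the transporter of secreted antibodies across the epithelium, fell by log2 2.33 in the first set (SE 0.39, adjusted p = 0.00398). The part of these cells in the Reg results was not tested.

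Fetal spheroids carried the family at low and uneven levels, with large differences between lines of 1 genotype before any deletion. With DMSO, Reg3a ran from 0 to 36.2 CPM (median 3.49) over the 6 flox/flox lines and from 0.151 to 59.2 CPM over the 5 flox/+ lines, and Reg4 from 14.7 to 279 CPM (median 79.4) and from 11 to 306 CPM. The flox/+ lines S9612-A and S9020-C had 54.4 and 59.2 CPM of Reg3a and 306 and 299 CPM of Reg4, and the other 3 had at most 0.75 CPM of Reg3a and 33.4 CPM of Reg4. Reg3a and Reg4 were thus high in the same lines. Between genotypes with DMSO none of the 5 members passed the test with edgeR or DESeq2 or had an unadjusted p under 0.05, and 0% of all genes passed (1084 of 15032 had an unadjusted p under 0.05).

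**Figure D3:**
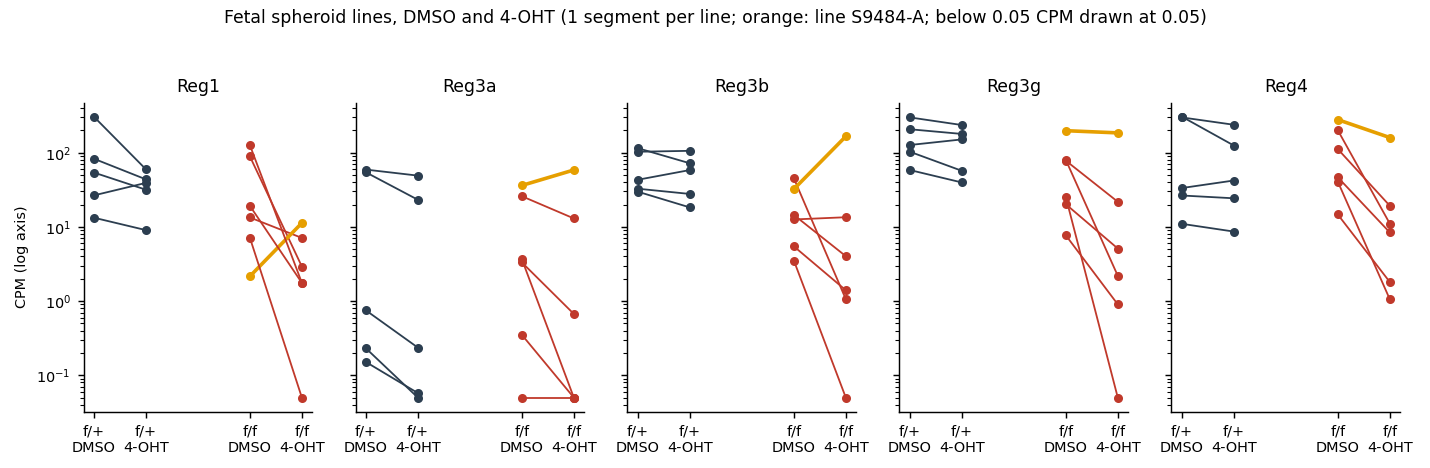
Level of each Reg gene (CPM, log axis, values below 0.05 drawn at 0.05) in each spheroid line with DMSO and with 4-OHT; a line joins the 2 libraries of 1 line. In flox/flox lines Reg3g and Reg4 drop in 6 of 6. With 4-OHT, line S9484-A lies far above the other 5 in Reg3a, Reg3b, Reg3g and Reg4.

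One library stood apart among flox/flox spheroids with 4-OHT. Line S9484-A had 58.5 CPM of Reg3a, 166 of Reg3b, 185 of Reg3g and 160 of Reg4, while the other 5 lines had at most 13, 13.5, 21.8 and 19.3 CPM. Its Eif4g2 level of 112 CPM was within the group's range of 84.9 to 224 CPM. Its summed markers were also the highest of the 6: 7186 CPM for enterocytes, 1124 for Paneth cells and 340 for enteroendocrine cells, against at most 3241, 285 and 93.6 CPM in the others. With DMSO the same line had 36.2 CPM of Reg3a, 32.3 of Reg3b, 198 of Reg3g and 279 of Reg4. Reg3a and Reg3b were thus higher with 4-OHT in this line, and Reg3g and Reg4 lower.

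With all lines, Reg1 was the only member that passed the test for 4-OHT in flox/flox spheroids, against 19.1% of all genes. It went from 2.16 to 126 CPM (median 16.3) with DMSO to 0 to 11.3 CPM (median 2.34) with 4-OHT, and was lower in 5 of 6 lines, the exception being S9484-A. The groups overlapped, with log2 -3.38 ± 1.05 (adjusted p = 0.029). The call was lost without the DMSO libraries of S9488-F (adjusted p = 0.0547) or S9488-H (0.0815), or the 4-OHT libraries of S9488-F (0.0589), S9488-H (0.0564) or S9020-A (0.0624). With the line as a block, it was log2 -3.35 (adjusted p = 0.122).

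Reg4 was lower in 6 of 6 lines, from a median of 79.4 CPM to a median of 9.74 CPM (1.06 to 160), with log2 -1.78 ± 1.13 (adjusted p = 0.3) over all lines. With the line as a block it passed the test (log2 -2.93, adjusted p = 0.0094), and without the 4-OHT library of S9484-A it did too (log2 -3.79, adjusted p = 0.0229). Reg3g was also lower in 6 of 6 lines, from a median of 51.6 CPM to 3.65 CPM (0 to 185), with log2 -0.93 ± 1.12 (adjusted p = 0.63), and -3.52 (adjusted p = 0.023) without that library. Reg3b had medians of 13.5 and 2.72 CPM and log2 0.71 ± 1.10 (adjusted p = 0.717), a value that became -2.26 (adjusted p = 0.0833) without that library. Reg3a had medians of 3.49 and 0.336 CPM, log2 0.06 ± 1.81 with all lines (adjusted p = 0.99) and -2.10 without that library (adjusted p = 0.506). These refits kept the DMSO library of S9484-A, the highest of its group in Reg3a (36.2 CPM), Reg3g (198) and Reg4 (279). They therefore did not leave out the whole line. The library of line S9488-D with 4-OHT had no read of Reg1, Reg3a, Reg3b or Reg3g, which allows up to 0.116 CPM (3 counts, counting error only), and 19.3 CPM of Reg4.

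In flox/+ spheroids no member passed the test for 4-OHT with edgeR or DESeq2, none had an unadjusted p under 0.05, and 0% of all genes passed (15 of 15032 had an unadjusted p under 0.05). Reg4 went from 11, 26.5, 33.4, 306 and 299 CPM to 8.65, 24.3, 42.2, 125 and 238 CPM, and Reg3g from 299, 103, 58.4, 207 and 127 CPM to 236, 57, 39.7, 179 and 151 CPM. Reg1 went from 13.3, 82.9, 54, 305 and 26.6 CPM to 9.05, 43.7, 31.7, 59.7 and 39.2 CPM. Reg3a went from 0.151, 0.75, 0.231, 54.4 and 59.2 CPM to 0.0576, 0.236, 0.0499, 23.2 and 49.1 CPM. Line by line, Reg3a was lower with 4-OHT in 5 of 5 flox/+ lines, Reg1, Reg3g and Reg4 each in 4 of 5 and Reg3b in 3 of 5, so most lines of both genotypes had lower values with 4-OHT. With the line as a block none of the 5 passed either, the smallest adjusted p being 0.3 for Reg3a (log2 -0.85). The lines S9612-A and S9020-C stayed the 2 highest in Reg4. The difference between the 2 effects of 4-OHT did not pass the test for any member with edgeR or DESeq2 (0 had an unadjusted p under 0.05), against 1.62% of all genes (2096 of 15032 had an unadjusted p under 0.05), with log2 -1.16 (adjusted p = 0.843) for Reg4. With the line as a block that value was -2.54 (adjusted p = 0.0266).

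Set against flox/+ spheroids with 4-OHT, none of the 5 members was called by edgeR in flox/flox spheroids (1, Reg1, had an unadjusted p under 0.05), where 10.5% of all genes were (3757 of 15032 had an unadjusted p under 0.05). DESeq2 called 1, Reg1 (log2 -3.18, adjusted p = 0.0187), where edgeR gave log2 -3.16 ± 1.06 (adjusted p = 0.061). Without the 4-OHT library of line S9484-A 3 were called, Reg1 (log2 -3.79, adjusted p = 0.039), Reg3b (-3.84, 0.0162) and Reg3g (-4.48, 0.0139).

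Fetal spheroids were also set against small intestinal organoids of the same genotype and treatment (flox/+ with 4-OHT). Of the 5 members, 2 passed the test, 1 in each direction, where 47.9% of all genes did. Reg1 was 9.05, 43.7, 31.7, 59.7 and 39.2 CPM in spheroids, 6.73-fold below the organoids (log2 -2.75 ± 0.57, adjusted p = 0.00401), with no overlap. Reg3g was 236, 57, 39.7, 179 and 151 CPM against 67.9, 62.5, 30.4 and 30.7 CPM (log2 1.59 ± 0.55, adjusted p = 0.0388), with overlapping ranges. The Reg3g call was kept in 3 of 9 refits without 1 library and had an adjusted p of 0.101 without organoid line S9348. Leaving out organoid line S9311 (0.0605) or S9349 (0.0994), or spheroid line S9488-I (0.0731), S9612-A (0.0722) or S9020-C (0.0657), also ended it. For Reg3b, the log2 difference of -1.05 (adjusted p = 0.128) became -1.40 (adjusted p = 0.0495) without spheroid line S9488-I. Reg3a did not pass the test (log2 -2.96 ± 1.46, adjusted p = 0.126), although its ranges did not overlap. It was 0.0499 to 49.1 CPM in spheroids and 95.6 to 154 CPM in organoids.

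All 5 members were below their own DMSO culture in 4 of 4 lines at every dose of A-485, and the doses at which they passed the test differed. At 3 µM 3 of 5 were called, all lower, against 19.2% of all genes. At 5 µM 4 were, against 49.6%, and at 10 µM all 5, against 62%. The median log2 difference over all genes stayed between -0.05 and 0.00.

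**Figure D4:**
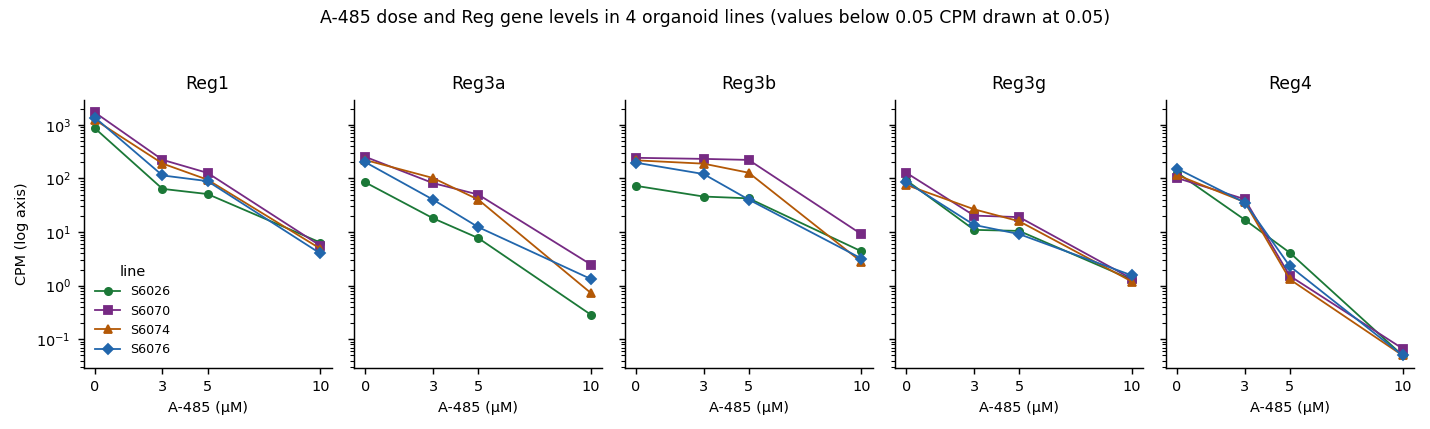
Level of each Reg gene (CPM, log axis, values below 0.05 drawn at 0.05) at 0, 3, 5 and 10 µM A-485 in 4 organoid lines (1 line of points each). The Reg4 ranges at successive doses do not overlap, and the Reg3b ranges at 3 and 5 µM overlap that with DMSO.

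Reg4 was 129, 102, 116 and 153 CPM with DMSO in lines S6026, S6070, S6074 and S6076, 17, 41.1, 36.3 and 35.6 CPM at 3 µM, and 4.12, 1.52, 1.31 and 2.31 CPM at 5 µM. The ranges at successive doses did not overlap. The difference from DMSO was log2 -1.94 ± 0.28 at 3 µM (adjusted p = 9.94e-05) and -5.72 ± 0.34 at 5 µM (adjusted p = 1.2e-09), or 52.6-fold. At 10 µM, 1 read was found over the 4 lines, in S6070, where DMSO libraries held 6362 reads, a ratio of 6089 after scaling to library totals (95% interval 1092 to 240548, counting error only). The 3 lines at 0 reads could hold up to 0.199 to 0.332 CPM.

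Reg1 was 866, 1708, 1246 and 1373 CPM with DMSO, 64, 223, 190 and 114 CPM at 3 µM, 51.2, 127, 94.8 and 89.2 CPM at 5 µM and 6.38, 5.57, 4.9 and 3.99 CPM at 10 µM. All treated libraries lay far below DMSO, while the 3 and 5 µM ranges overlapped. The fold reductions were 8.79, 14.3 and 246 (log2 -3.14 ± 0.36, -3.84 ± 0.37 and -7.94 ± 0.46, adjusted p = 2.11e-05, 5.66e-07 and 7.39e-10). Reg3g followed it, from 92.1, 127, 75.5 and 85.8 CPM to 11, 20.3, 26.6 and 13.6, then 10.5, 19, 15.9 and 9.15, then 1.29, 1.34, 1.19 and 1.55 CPM. Its log2 differences were -2.41 ± 0.27, -2.80 ± 0.27 and -6.15 ± 0.34 (adjusted p = 5.57e-06, 1.98e-07 and 6.89e-11).

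Reg3a was 84.4, 253, 221 and 201 CPM with DMSO, 18.1, 82, 102 and 40.3 CPM at 3 µM and 7.75, 50.2, 40.5 and 12.4 CPM at 5 µM. At 3 µM it was not called (log2 -1.65 ± 0.61, adjusted p = 0.0715). With the line as a block it was (log2 -1.80, adjusted p = 0.00186). At 5 µM it was called (log2 -2.78 ± 0.63, adjusted p = 0.00202). At 10 µM it was 0.287, 2.48, 0.729 and 1.33 CPM (log2 -7.29 ± 0.85, adjusted p = 2.4e-06).

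Reg3b passed the test only at 10 µM. It was 72.9, 243, 218 and 197 CPM with DMSO, 46, 232, 189 and 121 CPM at 3 µM and 42.6, 222, 128 and 40.4 CPM at 5 µM. Each line was somewhat lower than its own DMSO culture, but the ranges overlapped at both doses. The test gave log2 -0.31 ± 0.58 (adjusted p = 0.764) and -0.76 ± 0.59 (adjusted p = 0.308), and with the line as a block the 5 µM value was -0.94 (adjusted p = 0.00907). At 10 µM Reg3b was 4.37, 9.13, 2.78 and 3.21 CPM, 36.8-fold lower (log2 -5.20 ± 0.73, adjusted p = 1.69e-05). Line S6026, the +/+ line, had the lowest Reg1, Reg3a and Reg3b with DMSO, and Reg3g in that line was within the range of the others.

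At 10 µM markers of every epithelial class were low: 10 of 10 enterocyte, 10 of 10 goblet and 9 of 10 Paneth markers were lower than with DMSO, and 9 of 11 tested enteroendocrine markers. Of all genes, 62% were called at that dose, in either direction. At 3 µM the classes differed. Enteroendocrine markers summed to 28.1 to 114 CPM against 405 to 653 CPM with DMSO, and Paneth markers to 606 to 806 against 4951 to 7367 CPM. Goblet markers summed to 6651 to 14420 against 4158 to 6086 CPM. Enterocyte markers summed to 3360 to 8939 against 9922 to 21144 CPM. The part of these cells in the Reg results was not tested.

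Of the 16 STAT3 pathway genes, 5 of 14 tested were higher at 3 µM and none lower, 8 higher and none lower at 5 µM, and 7 higher and 2 lower at 10 µM (median log2 0.91). Of all genes, 19.2%, 49.6% and 62% were called at these doses, in either direction. Fut2, a fucosyltransferase known as an IL-22 target, rose by log2 3.43 ± 0.36 at 3 µM (adjusted p = 4.13e-06), and Il6st rose by 1.64 ± 0.10 at 10 µM (adjusted p = 2.17e-10). Of the other secreted defence genes, 11 of 12 tested were lower at 10 µM and 1 higher, including Itln1, a lectin of Paneth and goblet cells (log2 -9.27 ± 0.39, adjusted p = 2.08e-11), and Pigr (log2 -4.54 ± 0.20, adjusted p = 1.11e-11).

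Over the means of all 21 groups, each centred within its set, the 4 genes of the cluster had Pearson correlations of 0.736 to 0.925 with each other. The value was 0.925 for Reg1 and Reg3a (0.909 over the 17 groups without A-485), 0.888 for Reg3b and Reg3g (0.869), 0.876 for Reg1 and Reg3g (0.808) and 0.823 for Reg3a and Reg3g (0.689). Reg1 and Reg3b had 0.736 (0.63) and Reg3a and Reg3b 0.764 (0.584). Reg4 correlated less with the others: 0.64 with Reg1 (0.434), 0.628 with Reg3a (0.259), 0.573 with Reg3g (0.245) and 0.337 with Reg3b (-0.17). These are descriptions over groups that share libraries, animals and lines. Among 8627 other genes, those with the most similar pattern were Slc27a2 (0.943), Sdhc (0.943) and Bcl2l14 (0.941) for Reg1, and Ces1f (0.97), Cda (0.954) and Arg2 (0.952) for Reg3a. For Reg3b they were Ceacam1 (0.915), Lrp1 (0.894) and Galnt6 (0.889), and for Reg3g Vdr (0.925), Pigr (0.923) and Galnt6 (0.918). Reg4 was most like Pdxk (0.974), Itga1 (0.959) and Mrps31 (0.955).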

How the data were processed

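The deposited tables hold raw read counts per gene. Reads were aligned with HISAT2 2.0.5 to GRCm38/mm10 per the submitters' processing notes, from strand-marked libraries per the labels' protocols; the counting program, annotation and strand setting are not given in the sources used here. Counts were tested with edgeR 4.0.16 in R 4.3.3 (TMM scaling, genes kept by filterByExpr with the groups given, robust quasi-likelihood F-test, two-sided, Benjamini-Hochberg adjustment over all genes tested, call under 0.05). DESeq2 1.42.0 was an alternative, as were other scaling, no filter, blocks, covariates and each library left out. The scripts were tested on simulated data. Levels are CPM after TMM scaling within 6 sets of libraries. Intervals and limits for 0 reads (3 counts) cover counting error only.

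The members and gene lists were chosen with earlier results of these data known. Named genes were all members, Eif4g2, up to 4 called genes per list with the largest changes among those whose mean log2 CPM reached 3, and the 3 genes with the most similar pattern over groups for each member. Lists are described by counts and medians, with no test. Their results beyond those in the report are as follows. Stem cell markers were lower for 7 of 8 genes in Rosa26(CreER) crypts (20.2% of all genes called) and 8 of 8 at 10 µM A-485 (62%). Stromal markers (9 genes) passed in none in Rosa26(CreER) crypts. There they summed to 52.1 to 2291 CPM in flox/flox and 46.6 to 965 CPM in flox/+ samples. Of the other Reg genes, Reg3d was lower in the first organoid set only.

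Replicates of cultures are lines, and replicates of tissue are animals. Same-numbered libraries are the same line in the first organoid set, the spheroids and the A-485 set, and crypts and villi share animals. Libraries of different genotypes are different animals or lines and share only a number. In Rosa26(CreER) crypts same-numbered libraries correlated in 4 of 4 pairs (0.127 to 0.652), and 2 of 4 correlated best with their own number. In other comparisons between genotypes these correlations did not all exceed 0.1. The +/+ organoids are named by replicate.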

Additional observations from a re-analysis of the deposited data

Results flagged for a closer look

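In 90 combinations of a gene and a group of 4 to 10 libraries, 10 had 1 library far from the rest by Dixon's gap criterion. Its nominal rate of about 1 in 20 holds for independent, normally distributed values. These were CPM on a linear scale, and several of the 10 came from the same library, so that rate does not apply here. With 4-OHT, the flox/flox spheroid line S9484-A was far above the other 5 lines in Reg3a (58.5 CPM), Reg3b (166), Reg3g (185) and Reg4 (160). In flox/+ spheroids with DMSO, line S9612-A had 305 CPM of Reg1, while the others had 13.3 to 82.9 CPM. In flox/+ Vil1(CreER) mice, villi of replicate 3 had 140 CPM of Reg1 (others 81.3 to 84.6), villi of replicate 1 had 5612 CPM of Reg3b (others 1151 to 1881), and crypts of replicate 4 had 69.1 CPM of Reg3a (others 30.7 to 34.6). In +/+ organoids with 4-OHT, replicate 1 had 104 CPM of Reg4, while the others had 137 to 143 CPM. At 10 µM A-485, Reg4 was at 0.0671 CPM in line S6070 and at 0 in the other 3, a difference of 1 read. The effect of homozygous deletion on Reg4 differed between villi and crypts of Vil1(CreER) mice by log2 -2.35.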

How the results depend on the processing

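Over 1624 alternative values of the members' 105 differences, 1533 kept their side of the threshold, 73 lost the call and 18 gained one. No called value changed sign. Among the 1533 were 64 values that were not called and changed sign. Of 46 called differences, 32 were kept in every alternative and 38 in every refit without 1 library. Without the filter on low counts, which adds genes to the adjustment, 0 in place of 1 member was called in Rosa26(CreER) crypts and also in flox/flox spheroids. The villi of the same mice kept 2 of 4 calls, the crypt-villus comparison of flox/+ Rosa26(CreER) mice 3 of 5, the organoids given 4-OHT or DMSO 2 of 4, and spheroids against organoids 1 of 2. With a replicate block the calls went from 1 to 0 in Rosa26(CreER) crypts and 2 to 0 between spheroids and organoids. In both of these the libraries share only a number. The calls went from 1 to 2 for the tissue difference in Vil1(CreER) mice (Reg3a added, log2 1.05, adjusted p = 0.0275). For the genotype difference in spheroids they went from 0 to 1. The block removed the Reg1 call in flox/flox spheroids, and where numbers pair nothing it also removed those of Reg3b in Rosa26(CreER) villi (log2 1.70, adjusted p = 0.071) and in the second organoid set. With Ddx3y as a covariate the count was 0 in Rosa26(CreER) crypts. All 4 groups of the driver in 1 fit left 3 of 5 between crypts and villi of flox/+ Rosa26(CreER) mice, only 2 groups in the fit left 0 in flox/flox spheroids, all 7 groups of the table left 1 between spheroids and organoids, and DESeq2 called 1 between genotypes of spheroids with 4-OHT. Without 1 library the counts ran from 0 to 1 in Rosa26(CreER) crypts, 2 to 5 in villi, 3 to 4 both in Vil1(CreER) villi and in organoids given 4-OHT or DMSO, 2 to 3 for each flox/flox comparison of the second set, 0 to 3 in flox/flox spheroids and between genotypes with 4-OHT, 1 to 2 between spheroids and organoids and 0 to 1 for the tissue difference in Rosa26(CreER) mice. The causes were not tested. Depth limits values near 0 reads only.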
